A study of Mus with 15 samples.

Results

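The HoxC cluster is a run of 9 homeobox genes on mouse chromosome 15, and the data analysed here are the regions of chromatin carrying monoubiquitinated histone H2A (H2AK119ub1, here H2Aub) over these genes in the adult thalamus. The members were every gene of the cluster, Hoxc13, Hoxc12, Hoxc11, Hoxc10, Hoxc9, Hoxc8, Hoxc6, Hoxc5 and Hoxc4, that is 9 of 21883 protein-coding genes of the GRCm38 gene table (the mm10 build). Each gene was described by the H2Aub peaks overlapping its body plus 5 kb on each side. The cluster was also taken as a single interval from the lowest base of Hoxc13 to the highest base of Hoxc4, at chr15:102921131-103036856, a length of 115.7 kb. H2Aub was profiled by ChIPmentation, in which adapters are inserted by a transposase into chromatin already bound by the antibody. There were 11 H2Aub libraries in 4 groups. The WT groups (genotype label Maged1 Loxp, a floxed Maged1 allele without Cre) had received cocaine (n = 3) or saline (n = 3), and the cKO groups, in which Maged1 was deleted by Cre under the vGluT2 promoter, had received cocaine (n = 2) or saline (n = 3). All mice were adults of 2 to 4 months. All were given saline for 3 days and then cocaine (20 mg/kg, intraperitoneal) or saline vehicle for 5 days. Each library came from the pooled thalami of 3 to 4 mice, described in the labels as an independent biological replicate. Cre under this promoter acts in vGluT2-expressing cells, so the cKO thalami also held cells in which Maged1 was not deleted. The mark was measured in bulk tissue, and a larger share of cells carrying it cannot be told apart from more of it per cell.

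Hox genes encode transcription factors that set position along the body axis, and their order on the chromosome follows the order in which they are used from the anterior to the posterior end of the embryo. Hoxc4, Hoxc5 and Hoxc6 act toward the neck and upper trunk, Hoxc8 and Hoxc9 in the thorax, and Hoxc10 to Hoxc13 in lumbar, sacral and tail levels. The forebrain, of which the thalamus is a part, forms anterior to the Hox domains. There the clusters are a textbook case of silencing by Polycomb. Polycomb repressive complex 1 (PRC1) contains the RING1 ubiquitin ligases that deposit H2Aub, while PRC2 deposits trimethylation of histone H3 lysine 27, and both marks spread over domains much wider than a promoter. No RNA was measured in these libraries.

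The peak lists held between 7271 and 80713 peaks, covering 4.24 to 27.6 Mb. Of the peaks in a list, 9.82% to 32.9% had a q-value above 0.05. The study states a minimum depth for its ChIPmentation samples but not the depth of each library, so no counting interval could be given. Replicates 1 of the cKO cocaine and cKO saline groups stood apart from the other 9, with 54653 and 80713 peaks against 7271 to 26055. They held 7542 and 6877 peaks with a q-value of 1e-10 or lower, against 3 to 13 in each of the others. Results that rest on these 2 libraries are therefore also given without them.

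The HoxC interval was under H2Aub peaks over most of its length in nearly every library. Peaks covered 95.8%, 85.1% and 77.3% of it in WT cocaine replicates 1, 2 and 3, and 78.7%, 60.6% and 81.7% in WT saline replicates 1, 2 and 3. They covered 55.4% and 84.4% of it in cKO cocaine replicates 1 and 2, and 53.0%, 79.4% and 49.4% in cKO saline replicates 1, 2 and 3. The lowest value was therefore 57.1 kb and the highest 110.8 kb of a 115.7 kb interval. The lowest 3 values belonged to both cKO replicates 1 and to cKO saline replicate 3, which had the shortest list of all. The interval held 0.223% to 1.35% of all bases under peaks of a library.

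**Figure D1:**
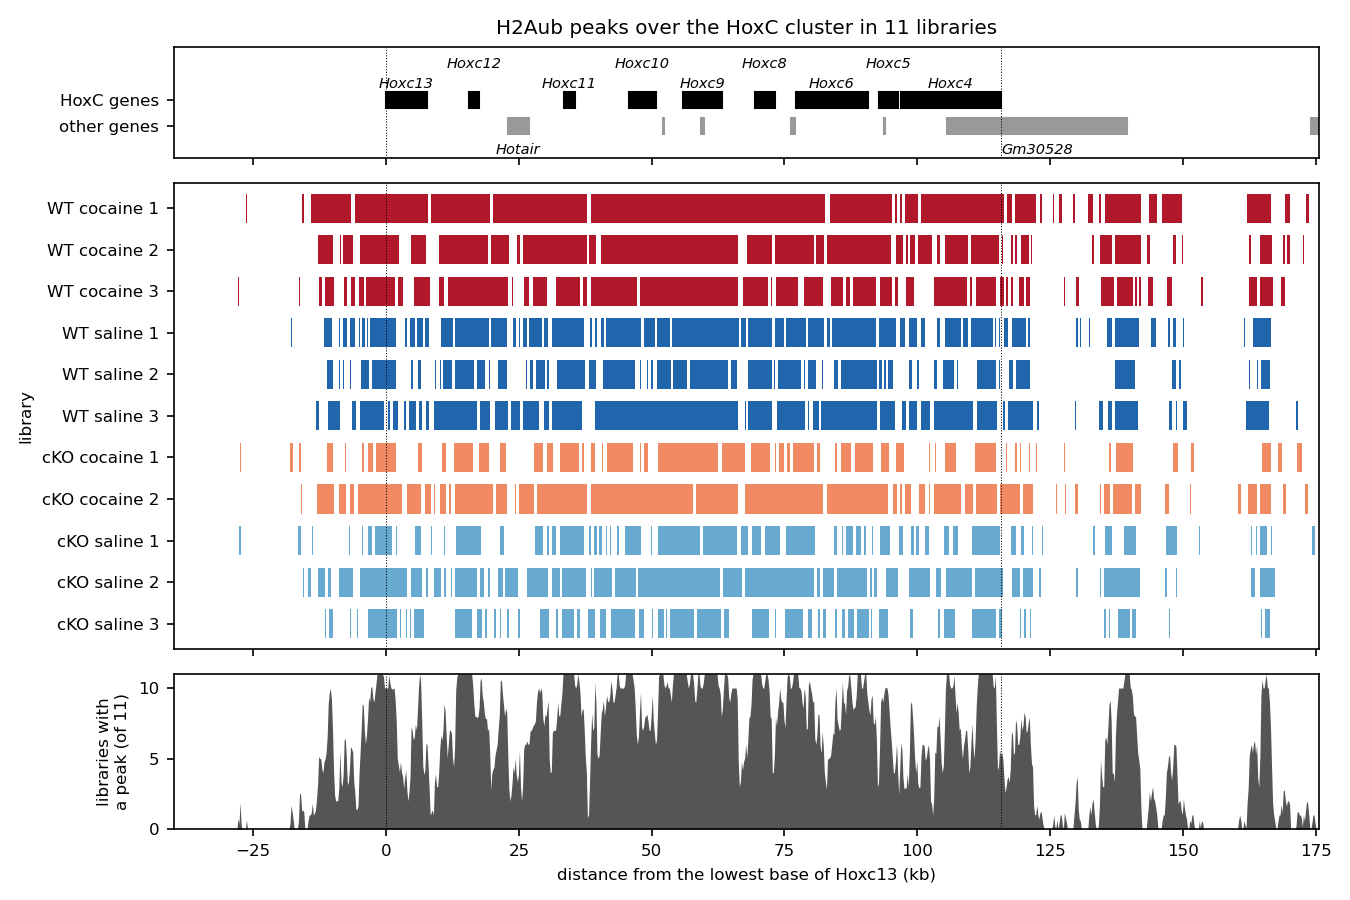
Map of the H2Aub peaks over the HoxC cluster, with distance in kb from the lowest base of Hoxc13 on the x axis, genes in the upper panel (HoxC genes black, other annotated genes grey), 1 row of peaks per library in the middle panel, coloured by group, and the number of libraries with a peak, averaged over steps of 200 bp, in the lower panel. Dotted lines mark the ends of the interval. Peaks filled 49.4% to 95.8% of the space between the lines, and their number per library ran from 9 to 45.

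The same interval was cut into few wide peaks in some libraries and many narrow ones in others. In WT cocaine replicates 1, 2 and 3 it held 9, 19 and 28 peaks, and in WT saline replicates 1, 2 and 3 it held 38, 43 and 26. In cKO cocaine replicates 1 and 2 it held 33 and 24, and in cKO saline replicates 1, 2 and 3 it held 40, 30 and 45. The fewest fragments were in the library with the highest coverage and the most in the library with the lowest.

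The widest peak of the interval was 44.1, 25.8 and 18.4 kb long in the WT cocaine replicates 1, 2 and 3. It was 12.6, 7.21 and 27.1 kb in the WT saline replicates, 11.2 and 19.4 kb in the cKO cocaine replicates and 7.85, 15.4 and 5.32 kb in the cKO saline replicates, in the same order. In 10 of 11 libraries this peak touched Hoxc9, and in cKO saline replicate 3 it lay over the start of Hoxc13 instead. In WT cocaine replicate 2 and WT saline replicate 3 it was the widest peak of the whole list. In the other libraries it ranked between 4 and 54 by width among all peaks of the list. The 44.1 kb peak of WT cocaine replicate 1, at chr15:102959751-103003805, ran without a break across Hoxc10, Hoxc9 and Hoxc8 into Hoxc6.

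Each of the 9 members had a peak in its body plus 5 kb in all 11 libraries, which was true of 6.76% of all protein-coding genes. By the median over libraries of the percent of this window that was covered, the members ranked from 12 to 105 among 21883 genes, of which 78.8% had a median of 0. Of the 144 genes with a median of 50% or more, 37 were Hox genes and all 9 HoxC genes were among them. Windows overlap in 6 of the 8 neighbouring pairs, by up to 9333 bp for Hoxc5 and Hoxc4 and 7875 bp for Hoxc6 and Hoxc5, so the values of these members are not independent. The windows of Hoxc12 and Hoxc11, and of Hoxc11 and Hoxc10, do not overlap.

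The posterior genes, which pattern the lumbar to tail levels, ranged widely. Hoxc10 had the highest median, with 93.1% of its window covered and a range of 58.5% to 100%. Its values were 100%, 100% and 96.0% in WT cocaine replicates 1, 2 and 3 and 89.5%, 74.0% and 100% in WT saline replicates 1, 2 and 3. They were 69.1% and 100% in the cKO cocaine replicates and 58.5%, 93.1% and 65.6% in the cKO saline replicates. Hoxc12 had a median of 84.4% (range 42.1% to 95.5%) and Hoxc11 of 71.4% (55.9% to 93.6%). Hoxc13, the last gene of the cluster at its posterior end, which is also known for its part in hair formation, had a median of 68.1% (33.8% to 96.9%).

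The thoracic genes lay at the centre of the covered region. Hoxc9, which is known for restricting limb-level motor neuron identity in the spinal cord, had a median of 90.2% and the highest minimum of the 9 members, with a range of 63.7% to 100%. It was covered to 88.5% and 90.1% in cKO cocaine replicate 1 and cKO saline replicate 1, the libraries in which Hoxc13 reached 36.8% and 33.8%. Hoxc8 had a median of 80.6% (48.0% to 100%).

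Of the anterior genes, Hoxc6 had a median of 79.8% (47.7% to 94.7%), Hoxc4 of 68.5% (35.6% to 88.5%) and Hoxc5 of 65.7% (37.1% to 83.3%). Within libraries, Hoxc10 was the highest member or tied for it in 6 of 11, Hoxc9 in 4, Hoxc8 in 2 and Hoxc12 in 1. Hoxc4 was the lowest in 5 libraries, Hoxc5 and Hoxc13 in 2 each, and Hoxc11 and Hoxc12 in 1 each. Ordered by their medians, the members ran Hoxc10, Hoxc9, Hoxc12, Hoxc8, Hoxc6, Hoxc11, Hoxc4, Hoxc13 and Hoxc5, and the ranges of every neighbouring pair in this order overlapped. Without the cKO replicates 1 the medians ran from 69.5% for Hoxc4 to 96.0% for Hoxc10.

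**Figure D2:**
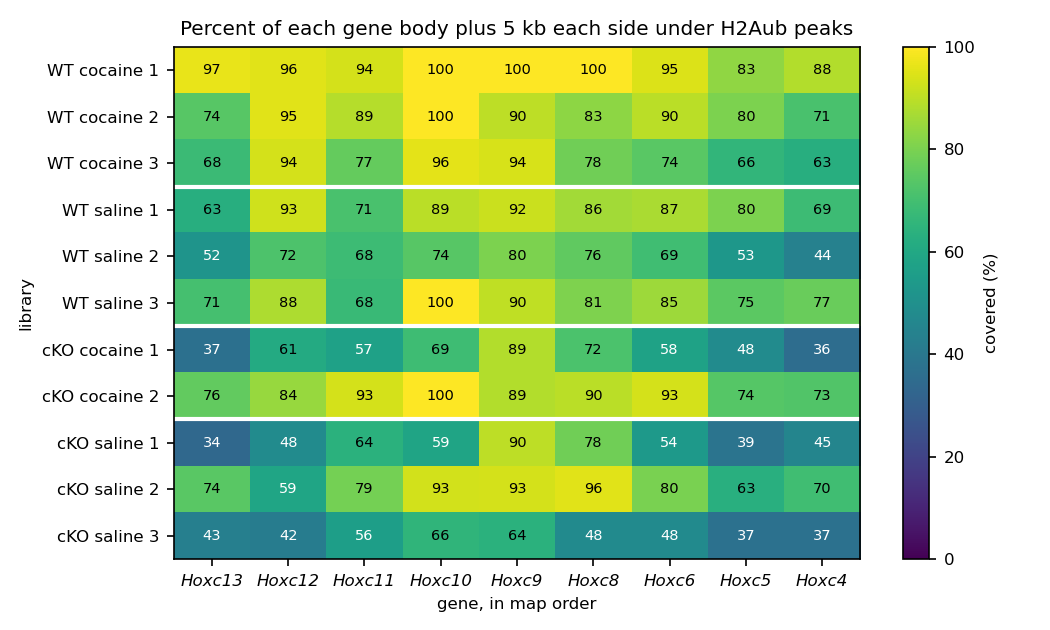
Percent of each HoxC gene body plus 5 kb on each side covered by H2Aub peaks, with genes in map order on the x axis and the 11 libraries on the y axis, white lines between groups. The columns of Hoxc10 and Hoxc9 hold the highest values and those of Hoxc5, Hoxc4 and Hoxc13 the lowest, and the rows with the least coverage are cKO cocaine replicate 1 and cKO saline replicates 1 and 3.

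Over the gene bodies alone, the body of Hoxc11, 2176 bp long, was wholly under peaks in 10 of 11 libraries, and 93.8% of it was covered in the remaining library, cKO saline replicate 3. The body of Hoxc12, 1784 bp long, was wholly covered in 6 libraries, and that of Hoxc9 in 5. No library covered the whole body of Hoxc6, Hoxc5 or Hoxc4, and that of Hoxc5 is 3422 bp long. The bodies of Hoxc13 and Hoxc10 had the widest ranges, each from 31.9% to 100%. Summed over the cluster, the bodies were covered to 54.1% to 95.9% and the spaces between them to 41.2% to 95.5%, with the bodies higher in 8 of 11 libraries by a mean of 2.94 ± 6.38 percentage points over all 11 (SD).

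A share of the interval was covered in every library. Bases under a peak in all 11 libraries made up 23.9% of the interval, in 33 stretches, and bases under a peak in at least 6 of 11 made up 78.8%. The longest stretch covered in all 11 libraries was 3000 bp, at chr15:102934377-102937376, and contained the lowest base of Hoxc12. Others of 2739, 2238, 1801, 1549 and 1085 bp contained the lowest bases of Hoxc9, Hoxc11, Hoxc8, Hoxc10 and Hoxc6. Those of 2885 bp, inside Hoxc4, and 2703 bp, inside Hoxc9, held no start of a HoxC gene. Without the cKO replicates 1, the longest common stretch was 4325 bp, at chr15:102979722-102984046 inside Hoxc9, and held no such start. The next was 3740 bp and contained the lowest base of Hoxc10. HoxC genes are all transcribed in the same direction, from the Hoxc13 end toward the Hoxc4 end, so that the lowest base of each record is its start. The start was under a peak in all 11 libraries for 6 of 9 members, in 10 for Hoxc13 and in 6 each for Hoxc5 and Hoxc4. The last base of the gene was under a peak in all 11 libraries for none of the 9, in 10 for Hoxc11, in 9 each for Hoxc9 and Hoxc6 and in 4 to 8 for the other members. The start was covered in more libraries than the end for 9 of 9 members, and for 8 of 9 without the cKO replicates 1, the exception being Hoxc4. Over all bases of the interval the mean was 8.01 libraries, against 9.78 at the starts and 6.89 at the ends.

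Few bases lacked the mark throughout. Only 0.118% of the interval, 136 bp, was without a peak in all 11 libraries, in a stretch of 79 bp between Hoxc11 and Hoxc10 and another of 57 bp between Hoxc13 and Hoxc12. Stretches covered in at most 3 libraries were also short, the longest being 1009 bp between Hoxc13 and Hoxc12. The space between Hoxc10 and Hoxc9, which carries the microRNA gene Mir196a-2, had the highest median of any space at 100%, with a range of 71.0% to 100%. The 667 bp space between Hoxc5 and Hoxc4 had the lowest, with a median of 25.9% and a range of 0% to 100%.

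The noncoding genes inside the cluster differed in coverage. Hotair, the long noncoding RNA gene on the antisense strand between Hoxc12 and Hoxc11 that has been studied for its links with Polycomb, had a median of 40.7% against 67.8% for the whole space between these genes, and was the lower in 10 of 11 libraries. It was covered to 100%, 45.1% and 27.9% in WT cocaine replicates 1, 2 and 3, to 40.7%, 3.17% and 73.1% in the WT saline replicates, to 0% and 55.2% in the cKO cocaine replicates and to 0%, 58.0% and 12.4% in the cKO saline replicates. The 2 libraries without a peak over Hotair were the cKO replicates 1. The lists have no strand, and a peak there belongs to the region and not to either transcript. Mir196a-2, Gm36878 and Gm29905 were wholly covered in 10 of 11 libraries each, and Mir615, inside Hoxc5, was wholly covered in 10 and without a peak in cKO saline replicate 2.

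When peaks up to 5 kb apart were joined, the covered domain was a single piece in 8 libraries and 2 pieces in cKO cocaine replicate 1 and cKO saline replicates 1 and 3. With gaps of 2 kb joined, only WT cocaine replicate 1 and cKO cocaine replicate 2 had a single piece. The most was then 10 pieces, in cKO saline replicate 1. With gaps of 5 kb joined, the border of the domain lay a median of 15.6 kb before Hoxc13 (range 7.07 to 18.1 kb). On the Hoxc4 side it lay a median of 6.85 kb after the gene in the 11 libraries, with 9 between 5.47 and 7.93 kb and 2, WT cocaine replicate 1 and cKO cocaine replicate 2, at 34.2 and 35.8 kb. It reached further before Hoxc13 than after Hoxc4 in 8 of 11 libraries. With gaps of up to 10 kb joined this order turned, with medians of 15.8 kb before Hoxc13 and 34.6 kb after Hoxc4, where a separate covered block was taken in. That block, 20 to 30 kb after Hoxc4 and partly over the long noncoding RNA gene Gm30528, was covered to a median of 53.3% (30.6% to 79.4%), whereas the 10 kb nearest to Hoxc4 had 32.4% and the next 10 kb 9.85%. Before Hoxc13 the coverage was 62.2% in the first 10 kb and 21.6% in the next 10 kb, and it was 0% from 20 to 40 kb (medians of 11 libraries).

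The nearest protein-coding genes had little of the mark. Calcoco1, a coactivator and autophagy receptor gene 199 kb before Hoxc13, had a peak in its body plus 5 kb in 3 of 11 libraries, and Atp5g2, an ATP synthase subunit gene beyond it, in none. On the other side, Smug1, a uracil-DNA glycosylase gene of base excision repair 116.4 kb after Hoxc4, had a peak within 5 kb in all 11 libraries with a median of 8.25% covered (1.91% to 16.9%). Cbx5, which encodes heterochromatin protein HP1 alpha, had a peak in 1 of 11 libraries, covering 0.284% of the window.

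**Figure D3:**
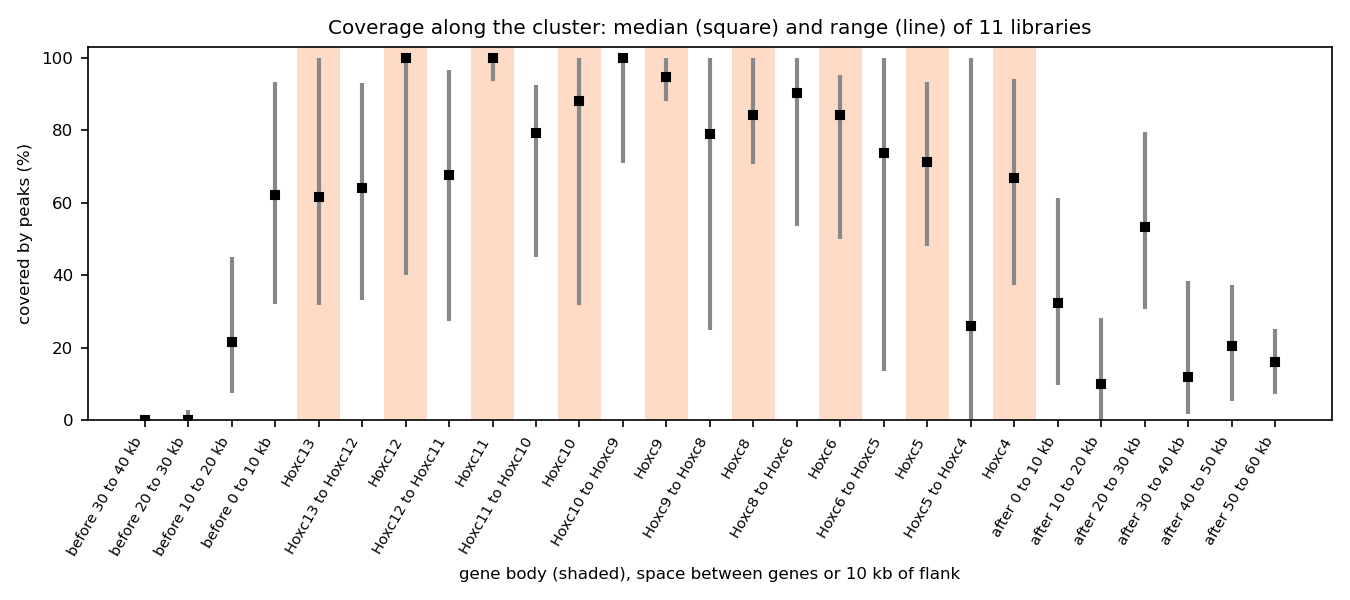
Percent covered by H2Aub peaks in each gene body (shaded), each space between genes and each 10 kb of flank, in map order on the x axis, with the median (square) and the range (line) of the 11 libraries. Medians were 100% over the bodies of Hoxc12 and Hoxc11 and in the space from Hoxc10 to Hoxc9, and were lower on both sides, with a separate block of 53.3% at 20 to 30 kb after Hoxc4.

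Fold enrichment over input, averaged by the peak caller over each peak, was moderate. The median over the HoxC peaks of a library lay between 3.99 and 4.56, against 3.10 to 4.02 for all peaks of the same lists, and was the higher of the pair in each of the 11 libraries. In the 9 libraries without the cKO replicates 1, the highest fold of any peak in the interval lay between 4.66 and 5.53. The cKO replicates 1 reached 8.10 and 18.8. Both of these peaks started at the same base, at chr15:102942529-102943674 in cKO cocaine replicate 1 and at chr15:102942529-102943288 in cKO saline replicate 1, between Hoxc12 and Hotair. The peaks of the other 9 libraries over that site had folds of 3.59 to 4.99. A second such site lay just outside the interval, with folds of 25.3 and 43.6 in peaks of 905 and 770 bp that began 3.46 and 3.42 kb before Hoxc13, where the other libraries had 3.90 to 4.96. The peak with a fold of 43.6 was the second highest of 80713 by fold in its list. Another, inside Hoxc5 and over Mir615, had folds of 7.56 and 10.7 against 3.72 to 4.97.

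The study asked whether repeated cocaine changes H2Aub in the thalamus and whether Maged1 is needed for it. At the HoxC interval the WT cocaine libraries had more coverage, fewer fragments and wider peaks on average than the WT saline libraries, and none of these differences passed the test. Coverage was 86.0% ± 9.27 (SD, n = 3) in WT cocaine and 73.7% ± 11.4 (n = 3) in WT saline, a difference of 12.4 percentage points ± 8.49 (SE). The 2 groups overlapped, since WT saline replicates 1 and 3 lay above WT cocaine replicate 3 (two-sided exact permutation test, p = 0.3, adjusted p = 0.6 over the 18 comparisons of 3 measures). The number of peaks was 18.7 ± 9.50 against 35.7 ± 8.74 (difference -17, exact permutation p = 0.2, adjusted p = 0.6), and the widest peak was 29.4 ± 13.2 kb against 15.6 ± 10.3 kb (exact permutation p = 0.3, adjusted p = 0.6). With 3 libraries against 3 or 2 against 3, the smallest p this test can give is 0.1. Over the alternative settings the WT difference in the number of peaks ranged from -21.8 to -3.67. Leaving out WT cocaine replicate 1 lowered the difference to 7.52 percentage points of coverage and 6518 bp for the widest peak. Leaving out WT saline replicate 2 lowered that of coverage to 5.84 points.

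In the cKO groups the means lay in the same direction, and the values overlapped for all 3 measures. Coverage was 69.9% ± 20.5 (n = 2) in cKO cocaine and 60.6% ± 16.4 (n = 3) in cKO saline (exact permutation p = 0.5, adjusted p = 0.635). The number of peaks was 28.5 ± 6.36 against 38.3 ± 7.64, and the widest peak 15.3 ± 5.77 kb against 9.53 ± 5.26 kb. The difference in the number of peaks, -9.83, ranged from -15.3 to 0 over the alternative settings. The difference in coverage, 9.34 percentage points, was 23.8 when replicate 1 of cKO cocaine was left out and -5.17 when replicate 2 was, and that of the widest peak, 5754 bp, was 9836 and 1671 bp. Without the cKO replicates 1, a single cKO cocaine library remained, with 84.4% covered against 79.4% and 49.4% in cKO saline.

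Over both genotypes, cocaine minus saline was 10.9 percentage points of coverage (exact permutation within genotype, p = 0.21, adjusted p = 0.6), -13.4 peaks (p = 0.03 by the same exact test, adjusted p = 0.54) and 9790 bp for the widest peak (exact p = 0.095, adjusted p = 0.6). The number of fragments had the lowest unadjusted p of the 18 comparisons and did not pass after adjustment. The difference in coverage was 18.1 points when cKO cocaine replicate 1 was left out and 3.6 when replicate 2 was, and that of the widest peak was 6136 bp when WT cocaine replicate 1 was left out. The difference of the cocaine effect between genotypes, cKO minus WT, was -3.04 percentage points (exact permutation p = 0.9), 7.17 peaks (p = 0.59) and -8072 bp (p = 0.54). Leaving out WT cocaine replicate 1 brought it to 1.82 points, 2.33 peaks and -764.5 bp. The cKO saline libraries had 13.1 percentage points less coverage on average than the WT saline libraries (exact permutation p = 0.3), and cKO cocaine 16.1 points less than WT cocaine (exact permutation p = 0.4), with adjusted p = 0.6 for both. Without cKO cocaine replicate 1 the latter difference was -1.60 points, and without replicate 2 it was -30.6 points. Without cKO saline replicate 1 the former was -9.28 points, and leaving out another saline library moved it to between -22.5 and -7.45 points, reached when replicate 2 and replicate 3 of cKO saline were left out.

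WT cocaine lists covered 10.4 to 17.2 Mb in all and WT saline lists 5.55 to 11.1 Mb. As a share of all covered bases, the HoxC interval took 0.720% ± 0.123 (SD, n = 3) in WT cocaine and 1.07% ± 0.226 (n = 3) in WT saline, so the direction of the difference was the opposite of that for coverage itself (exact permutation p = 0.2, adjusted p = 0.675). It was also the opposite in the cKO groups, with 0.593% ± 0.412 (n = 2) in cocaine and 0.923% ± 0.611 (n = 3) in saline. The interval has a fixed length, so its share can fall where a list covers more bases elsewhere, even while its own coverage rises. Equal list lengths of 7271 peaks were tried as an alternative, with values over both genotypes and in cKO given further below. Apart from this, the part of list length in the differences between groups was not tested.

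**Figure D4:**
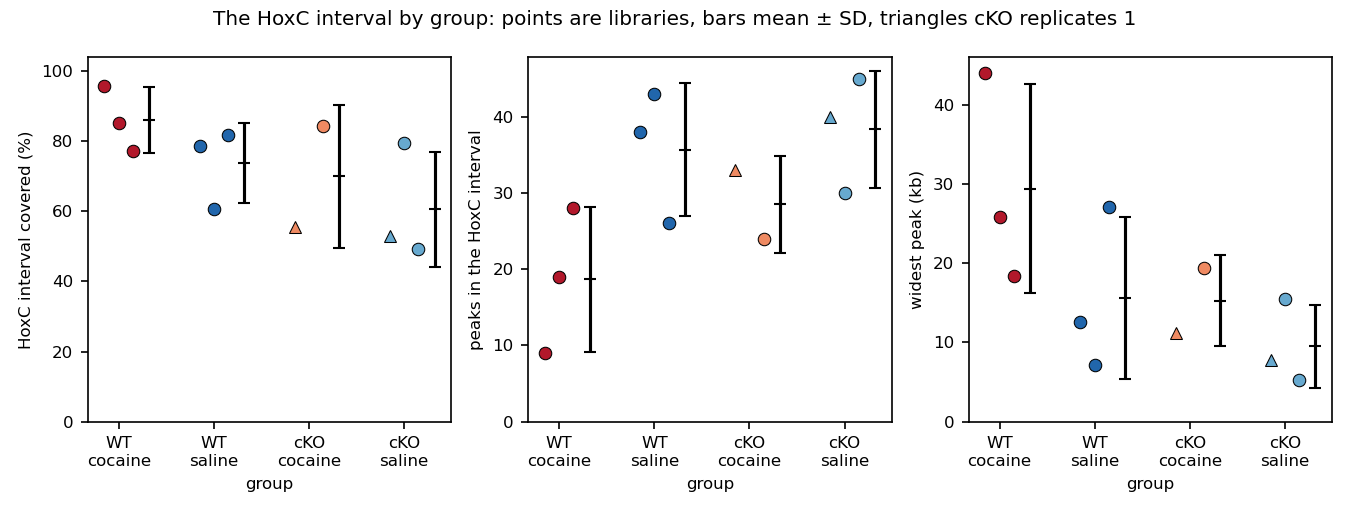
Percent of the HoxC interval covered (left), number of peaks in it (centre) and width of its widest peak in kb (right) by group on the x axis. Points are libraries, triangles are the cKO replicates 1, and bars are the mean ± SD. Within each genotype the cocaine and saline groups overlap in each panel, with WT cocaine replicate 1 at 95.8%, 9 peaks and 44.1 kb.

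Among the single genes, Hoxc12 and Hoxc11 had every WT cocaine library above every WT saline library in covered bp. The Hoxc12 window was covered to 95.5%, 95.4% and 93.6% in WT cocaine replicates 1, 2 and 3 and to 92.8%, 72.1% and 87.7% in WT saline replicates 1, 2 and 3. The lowest WT cocaine value lay just above the highest WT saline value. The Hoxc11 window was covered to 93.6%, 89.0% and 76.5% in WT cocaine and to 71.4%, 68.4% and 67.9% in WT saline. These 2 of 9 members compare with 5.81% of all protein-coding genes in that direction, and with 5 of the 30 genes of the other Hox clusters. The shares of all genes, here and below, include the 78.8% of genes with a median coverage of 0. None of the 9 lay in the opposite direction, against 0.11% of all genes. Over the gene body alone, 1 member, Hoxc13, lay higher in cocaine in this way, against 4.52% of all genes.

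In the cKO groups Hoxc12 was the only member without overlap, at 61.3% and 84.4% in cocaine replicates 1 and 2 and 48.4%, 58.8% and 42.1% in saline replicates 1, 2 and 3. That is 1 of 9 members against 2.52% of all genes, and 0 of 9 in the opposite direction against 0.0503%. Without the cKO replicates 1, which leaves 1 cocaine library against 2 saline libraries, 7 of 9 members were higher in cocaine, against 17.6% of all genes, and 0 of 9 were lower, against 0.754%. The other 2 members were Hoxc9 and Hoxc8. With the same number of peaks taken from each list, 0 of 9 members lay higher in cKO cocaine without overlap, against 0.599% of all genes.

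In saline, Hoxc12 was the member that separated the genotypes. Its window was covered less in all 3 cKO saline libraries than in any WT saline library, 42.1% to 58.8% against 72.1% to 92.8%, which was 1 of 9 members against 0.37% of all genes. In the opposite direction there were 0 of 9 against 0.329%. With cocaine, Hoxc12 (61.3% and 84.4% against 93.6% to 95.5%) and Hoxc9 (88.5% in both cKO libraries against 90.2% to 100%) were lower in cKO than in WT, 2 of 9 members against 1.77% of all genes, and 0 of 9 were higher, against 3.59%. Over gene bodies alone, 0 of 9 members were lower in cKO saline than in WT saline without overlap, against 0.402% of all genes. The comparisons share libraries, so the recurrence of Hoxc12 is not independent between them.

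Among the 4 Hox clusters of the mouse, each taken from its first to its last gene, HoxC was covered less than HoxA in every library. HoxA, on chromosome 6 with 11 genes, was covered to 57.5% to 98.9%, and the difference HoxC minus HoxA was -9.94 ± 4.42 percentage points (SD, n = 11 libraries, 0 of 11 higher in HoxC, two-sided exact sign-change permutation test, p = 0.000977, adjusted p = 0.00146 over 3 clusters). This is the smallest p that 11 libraries can give. HoxD, on chromosome 2 with 9 genes, was covered to 58.4% to 90.2%, and HoxC minus HoxD was -0.717 ± 5.04 percentage points (higher in 4 of 11, exact permutation p = 0.647).

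HoxB, on chromosome 11 with 10 genes, was covered to 44.6% to 71.2%, and HoxC was higher in 11 of 11 libraries by 15.8 ± 7.40 percentage points (exact permutation p = 0.000977, adjusted p = 0.00146). The HoxB interval holds a space of 74.7 kb between Hoxb13 and Hoxb9. From Hoxb9 to Hoxb1 alone, a choice made after seeing the data, HoxB was covered to 59.0% to 93.0%, and HoxC minus HoxB became -2.39 ± 5.95 percentage points (higher in 5 of 11, exact permutation p = 0.213, adjusted p = 0.319). The difference from HoxB thus depended on whether this space was counted.

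**Figure D5:**
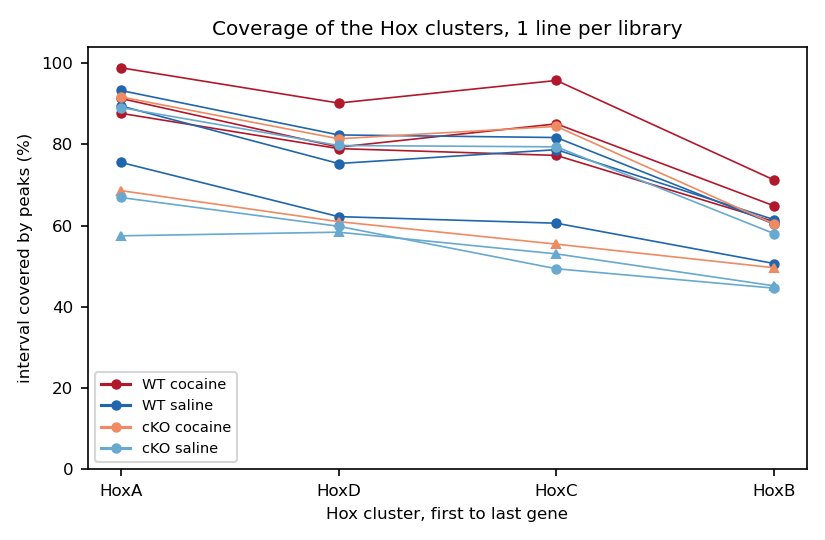
Percent of each Hox cluster interval covered by H2Aub peaks (y axis) in the 4 clusters (x axis), with 1 line per library coloured by group and triangles for the cKO replicates 1. Every line is higher at HoxA than at HoxC and higher at HoxC than at HoxB, where the whole HoxB interval with its 74.7 kb space is used.

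All 30 HoxA, HoxB and HoxD genes had a peak in body plus 5 kb in all 11 libraries. The medians of their covered percent were 87.5% over the 11 HoxA genes, 85.5% over the 10 HoxB genes and 83.7% over the 9 HoxD genes, against 79.8% over the 9 HoxC genes. The lowest genes of HoxB and HoxD, Hoxb1 and Hoxd1, named here after their values were seen, had medians of 38.4% and 23.7%. The lowest HoxC gene had 65.7% and the lowest HoxA gene 78.2%. The Hox3 genes, a group without a HoxC member, had the most covered bases of the other clusters in windows of 46.3 to 54.0 kb, with medians of 48076 bp (89.0%) for Hoxa3, 40300 bp (79.3%) for Hoxb3 and 36653 bp (79.2%) for Hoxd3, followed by Hoxd10 with 18828 bp. In WT, 5 of these 30 genes lay without overlap higher in cocaine, against 5.81% of all genes, and 0 lower, against 0.11%.

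The genes for the homeodomain cofactors that bind DNA together with Hox proteins had peaks over a smaller part of their windows. Of the 9 Pbx, Meis and Pknox genes, 2 had a peak in all 11 libraries, Meis2 with a median of 7.70% of its window covered (5.27% to 10.4%) and Meis1 with 5.80% (4.09% to 9.83%). These windows are long, 216.3 and 149.2 kb, and the covered medians were 16651 and 8649 bp. The median over the 9 was 0%.

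Marker genes were described by their peaks alone. Of 6 genes used as markers of thalamic glutamatergic neurons, Gbx2 (61.8%, range 56.2% to 94.8%) and Lef1 (3.77%) had a peak in all 11 libraries, and the median over the 6 was 1.43%. Of 4 general neuron markers, Rbfox3 had a peak in all 11 libraries with 0.909% of its window covered, and the median over the 4 was 0%. The 5 Hox genes used as markers of hindbrain and spinal cord, Hoxc5 and Hoxc8 among them, had a peak in every library with a median of 84.0%.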

How the data were processed

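H2Aub ChIPmentation libraries from mouse thalamus (11, with 4 total input libraries that served as controls) were analysed from the peak lists the authors deposited, 1 list per library. The authors trimmed adapters, aligned them to mm10 (Bowtie2 2.3.4.1) and used the broad mode of MACS2 (2.1.1.20160309.3), with total input as control, to find peaks. The deposited columns used were the positions, the fold enrichment over input (a ratio) and the −log10 q-value. Lists run to a q-value of 0.0997, beyond the 0.05 that a form of the study states for peak calling, and were used whole. The depth of each library is unknown, and list length was not corrected for it. Peaks on unplaced contigs were dropped. The series text gives 3 to 4 pooled thalami per library and the methods give 2 to 4.

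Gene bodies came from the RefSeq table of GRCm38.p6, whose coordinates are those of mm10. Covered bases were counted after merging overlapping peaks within a library. A peak in the interval was counted whole where it crossed a border. Groups were compared by two-sided exact permutation of libraries, stratified by genotype where both were used, and clusters by exact sign changes within library, with Benjamini-Hochberg adjustment over 18 and 3 comparisons. Single genes were not tested: separated groups were counted beside the share of all protein-coding genes. The arithmetic and tests were tested on simulated data. Python 3.11.15, numpy 2.4.6 and pandas 2.3.3 were used. All 9 members are named, with genes inside the interval, the nearest 2 protein-coding genes on each side and, from fixed lists (Hox cofactors, Hox paralogs, markers), up to 4 with a peak in all or no libraries. Members and lists were chosen with earlier results of these data known. Alternatives were a q-value of 0.05 or 0.01, equal list lengths of 7271 peaks, other intervals and gaps, gene bodies alone, each library left out and the replicate number as a block.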

Additional observations from a re-analysis of the deposited data

How the results depend on the processing

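HoxC minus HoxA and HoxC minus HoxB were recomputed with a q-value of at most 0.05 or 0.01, equal list lengths, 5 kb added on each side, the cKO replicates 1 left out and each library left out. Both kept their direction and an adjusted p under 0.05 in these settings, with ranges of -13.4 to -9.18 and 13.1 to 17.8 percentage points, but HoxC minus HoxB turned to -2.39 with HoxB taken from Hoxb9 to Hoxb1. HoxC minus HoxD, which did not pass, turned to 0.336 without the cKO replicates 1 and to 2.53 with 5 kb added on each side, ranged from -1.36 to 0.258 with 1 library left out, the highest without cKO saline replicate 3, and was lowest at -4.76 with a q-value of at most 0.01 (exact permutation, adjusted p = 0.0645). None of the 18 group comparisons had an adjusted p under 0.05 in any setting, so the values below are among comparisons that did not pass. With equal list lengths, coverage differed by -43.7 percentage points (cKO cocaine minus WT cocaine), -27.1 (cKO saline minus WT saline), 5.93 (cocaine minus saline over both) and -16.7 (difference of the cocaine effect). With a q-value of at most 0.01 it differed by -20.7 (cKO saline minus WT saline), 17.3 (cKO cocaine minus cKO saline), 16.5 (over both) and 1.67 (difference of the cocaine effect), and the number of peaks differed by 0 (cKO cocaine minus cKO saline) and -3.33 (cKO saline minus WT saline). With equal list lengths, cKO cocaine minus cKO saline was -2.41 percentage points, and the number of peaks differed by -4.67 (cKO saline minus WT saline), -7 (cKO cocaine minus WT cocaine) and -2.33 (difference of the cocaine effect). As a percent of all covered bases, cocaine minus saline was -0.349 in WT, -0.330 in cKO and -0.339 over both, and the difference of the effect was 0.0189. Without the cKO replicates 1 that difference was 7.68 percentage points of coverage. With peaks up to 1 kb apart merged, the widest peak of cKO cocaine minus cKO saline was -5319 bp, that of WT cocaine minus WT saline 30096 bp and the difference of the effect -35415 bp, and the number of peaks over both genotypes differed by -3.42. With 1 library left out, the difference of the cocaine effect in coverage ranged from -17.5 to 11.5 percentage points, cKO cocaine minus cKO saline from -5.17 to 23.8, the number of peaks of cKO saline minus WT saline from -2.17 to 6.83, and the difference of the cocaine effect from -13807 to -764.5 bp for the widest peak and from 2.33 to 12 peaks.

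The replicate numbers were not taken to pair the libraries, since not every same-numbered pair correlated over 0.1. Deviations of same-numbered WT cocaine and WT saline libraries from their group means, over all protein-coding genes, correlated at 0.215, -0.0417 and 0.0493, and not every library correlated best with its own number. The values were 0.679 and 0.598 for cKO cocaine with cKO saline, 0.443, 0.0784 and 0.0632 for cKO saline with WT saline, and 0.0150 and -0.235 for cKO cocaine with WT cocaine. The 2 cKO cocaine libraries deviate from their mean by equal and opposite amounts, so values with this group are not independent. The cKO replicates 1 shared 18 peaks of identical position, against at most 2 in any other pair of libraries. Their lists were also the longest, with 54653 and 80713 peaks, so more of their peaks could coincide. With the replicate number as a block, the smallest p allowed is 0.25 for 3 pairs, WT cocaine minus WT saline in coverage was 12.4 percentage points (exact p = 0.5) and no call changed. Leaving out a cKO cocaine library leaves 1 in that group, where this test cannot pass. The unknown depth of each library limits what a missing peak can show.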
